A study of Xenopus laevis and Petromyzon marinus with 21 samples.

Results

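Rows whose name starts with astl, the symbol of the astacin-like metalloproteases, made up 13 of the 49282 gene rows in a table of RNA-seq counts from Xenopus laevis animal caps. They were chosen by name, and astl2d.2.L, astl2d.3.L and astl2f.S were picked out beforehand because their counts appeared late in induced caps and were uneven between libraries. The values in induced caps that chose them are therefore given below as a description, with no test. Astacins are secreted zinc endopeptidases. In frog and fish embryos several of them are made by the hatching gland and are released to digest the envelope around the embryo at hatching. In the frog this gland is a strip of surface ectoderm on the head that lies beside the neural crest at the border of the neural plate. The suffixes .L and .S mark the copies on the long and the short chromosome of each pair in this allotetraploid frog.

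Animal caps are explants of the blastula's animal pole, cut out and cultured in saline. Induced caps came from wild-type embryos that had received mRNA for wnt8a, a Wnt ligand, and chordin, a BMP antagonist, by injection when they had 2 cells; together these turn the explant towards neural crest. Control caps came from wild-type embryos left uninjected. The labels name the induced caps induced neural crest, and the control caps blastula cells at stage 9 and epidermis at stages 13 and 17. Each arm was collected at stage 9 (blastula), stage 13 (early neurula) and stage 17 (late neurula), with 3 libraries per group, called a, b and c here after the table's columns. The labels do not say whether the 3 libraries came from separate clutches, so p-values measure only the spread between these libraries, which may be technical. Lamprey libraries of the same series were not used.

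The 18 frog libraries held 15596247 to 23292078 counts in genes. The injected genes separated the arms, with 145, 221 and 422 counts of wnt8a.L in induced libraries a, b and c of stage 17 against 6, 3 and 6 in control libraries. Of 20 tested rows of a neural crest list, 18 were higher and none lower in induced caps of stage 17, and of 18 tested rows of an epidermis list, 1 was higher and 16 were lower. The shares over all 24499 tested genes were 22.2% higher and 22.8% lower, or 5427 and 5586 genes; scaled by library totals in place of TMM, 7077 were higher and 4425 lower, and the median gene moved by 0.23 on the log2 scale. The test was edgeR's quasi-likelihood test with Benjamini-Hochberg adjusted p under 0.05, and levels are CPM, counts relative to library size scaled by TMM, given with the SD over 3 libraries. Reads per row were not divided by transcript length, so levels are compared between libraries and not between genes.

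The astl rows fell into 3 patterns of level over the 6 groups. In 9 rows every induced library of stage 17 lay above all 15 other libraries; these were astl2d.2.L, astl2d.3.L, astl2e.1.L, astl2e.2.L, astl2f.S, astl2g.L, astl3a.1.L, astl3b.1.L and astl3c.L, called the late rows below. Over all tested genes, 1072 or 4.38% had that pattern. One row, astl2d.1.L, was high in both arms from stage 13 onward, and astl.L was high at stage 9 and low afterwards. The remaining rows stayed near the limit of detection, astl2a.S with 5 counts in all induced libraries and 2 in all control libraries, and astl2b.L with group totals of 24 counts or fewer. Of the 13 rows, 9 passed the filter on low counts; astl2a.S, astl2b.L, astl3b.1.L and astl3c.L did not.

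Of the 3 rows picked out beforehand, astl2d.2.L and astl2d.3.L were close to empty until stage 17, and astl2f.S was close to empty at stage 9. For astl2d.2.L the induced libraries a, b and c held 0, 0 and 0 counts at stage 9, 1, 1 and 5 at stage 13, and 214, 1835 and 1169 at stage 17. Its control libraries held 0, 2 and 0 counts at stage 9, 2, 1 and 3 at stage 13, and 0, 7 and 1 at stage 17. The gain was thus seen in every induced library of stage 17 and was lowest in library a.

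In CPM, astl2d.2.L stood at 12.9, 92.9 and 51.2 in induced libraries a, b and c of stage 17, or 52.3 ± 40 (SD, n = 3), against 0.149 ± 0.205 in control caps. The pooled ratio of induced to control caps was 340, with a 95% interval from counting error alone of 172 to 788. Within induced caps, stage 17 stood 386 times above stage 13 (187 to 961). Such intervals do not hold the spread between libraries, and induced library b of stage 17 stood 7.19 times above library a here.

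The astl2d.3.L row followed the same course. Its induced libraries held 2, 0 and 2 counts at stage 13 and 320, 3295 and 1414 at stage 17, or 82.7 ± 75.9 CPM at the later stage. Control caps of stage 17 held 17, 31 and 0 counts, or 0.913 ± 0.855 CPM. The pooled ratio of induced to control caps at stage 17 was 88.5 (66.7 to 120).

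Counts of astl2f.S appeared earlier, at stage 13. Its induced libraries a, b and c held 8, 62 and 161 counts at stage 13, or 0.523, 3.71 and 9.1 CPM, and 270, 5117 and 2368 at stage 17, or 16.3, 259 and 104 CPM. Control caps held 0, 1 and 0 counts at stage 13 and none at stage 17. At stage 13 the induced caps stood 209 times above control caps, with a counting interval of 37.2 to 8290 because the control caps held 1 count. At stage 17 they stood at least 2180-fold higher, taking 3 counts over the control group as the floor for a count of 0. Within induced caps the ratio of stage 17 to stage 13 was 28.2 (24.7 to 32.3).

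**Figure D1:**
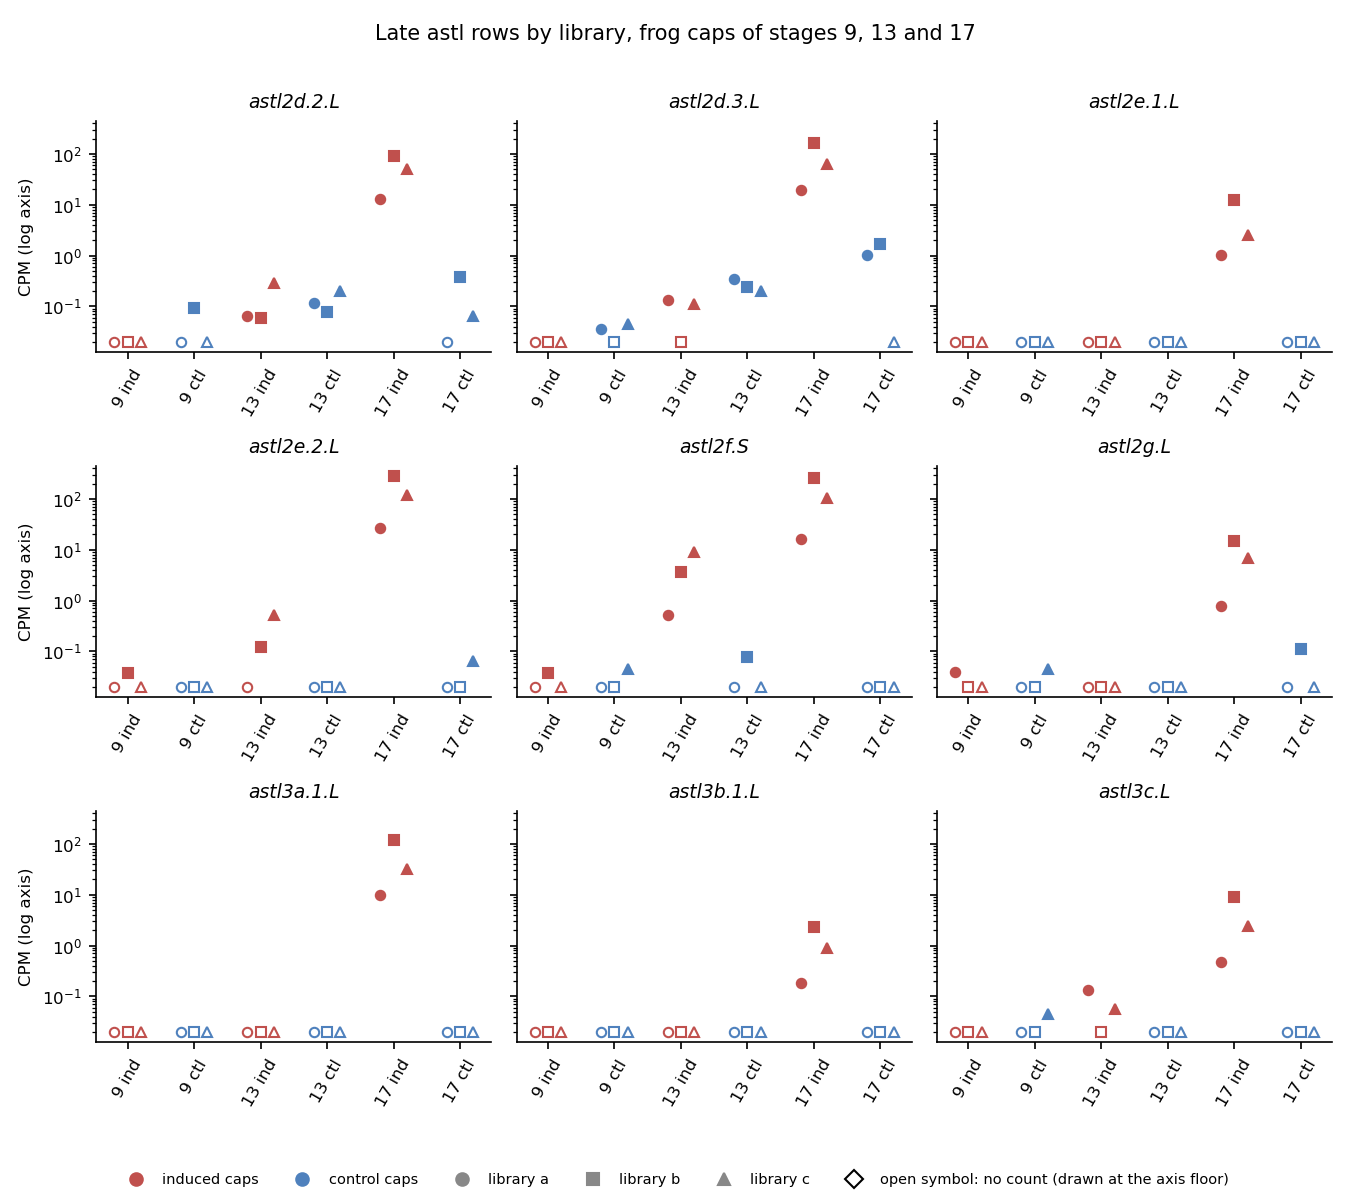
Each panel plots 1 of the 9 late astl rows, with CPM on a log axis against stage and arm; points are single libraries, and open symbols at the axis floor hold no count. The 3 induced libraries of stage 17 lie above every other library in all panels, and only astl2f.S has an induced stage 13 library above 1 CPM.

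The other late rows had few or no counts before stage 17. The astl3a.1.L row, whose RefSeq entry carries the older frog names uvs.2 and xhe for a Xenopus hatching enzyme, had no count in any of the 15 other libraries. It held 164, 2329 and 726 counts in induced libraries a, b and c of stage 17, or 53.2 ± 57.1 CPM, at least 907-fold higher than control caps of that stage. The astl2e.2.L row was close to empty elsewhere. Its induced libraries held 0, 2 and 9 counts at stage 13 and 451, 5564 and 2696 at stage 17, or 142 ± 129 CPM, against 1 count in control caps of stage 17. That single count gave a ratio of 7360 (1320 to 291000).

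The 4 remaining late rows rested on fewer counts. The astl2g.L row averaged 7.62 ± 7.25 CPM in induced caps and 0.0365 CPM in control caps, a ratio of 199 (54.7 to 1640). For astl2e.1.L, with 17, 243 and 59 counts in induced libraries a, b and c of stage 17 and none elsewhere, induced caps stood at least 89.8-fold higher. For astl3c.L, with 8, 175 and 55 counts, and astl3b.1.L, with 3, 45 and 20 counts, control caps of stage 17 held none. Induced caps stood at least 67-fold higher for astl3c.L and at least 19.2-fold higher for astl3b.1.L.

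Taking all 13 rows, every induced library of stage 17 lay above every control library of that stage in 9 rows, where 30.3% of all tested genes did so, and every one lay above every induced library of stage 13 in 11 rows, where 27.9% did. These counts follow from what the rows were chosen for. Summed over the 9 late rows, the level was 0.85, 3.89 and 10.1 CPM in induced libraries a, b and c of stage 13 and 88.1, 957 and 380 CPM in those of stage 17, against 1.04, 2.19 and 0.13 CPM in control libraries a, b and c of stage 17. Residuals over genes correlated between same-letter libraries across groups. The late sums were ordered differently by letter in induced caps of stage 13, induced caps of stage 17 and control caps of stage 17. They rested on only 13, 65 and 178 counts in induced libraries a, b and c of stage 13. In control libraries a, b and c of stage 17 they rested on 17, 40 and 2 counts. The part of the letter in the late rows' unevenness was not tested. Within each letter the late sum was highest in the induced library of stage 17, which follows from how the late rows were defined. The late sum was still a small part of the RNA, 0.00827%, 0.0941% and 0.0379% of gene counts in induced libraries a, b and c of stage 17. In bulk caps, fewer cells of a type and less RNA per cell cannot be told apart.

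The induced libraries of stage 17 differed widely in these rows. All 9 late rows had the same order of libraries, lowest in a, intermediate in c and highest in b. Library b stood 7.19 times (astl2d.2.L) to 19.4 times (astl2g.L) above library a, and library c stood 2.52 times (astl2e.1.L) to 8.72 times (astl2g.L) above library a. With library b left out, the ratio of the highest to the lowest of the other two ran over the same 2.52 to 8.72, and with library a left out it ran from 1.81 to 4.75. The late rows thus differed between libraries with either of them left out.

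The spread of all tested genes was read in the same way. On the log2 scale the range over the 3 induced libraries of stage 17 was 2.84 to 4.11 in the 7 late rows that passed the filter, against a median of 0.51 over all tested genes. Of those genes, 2.04% had a range of at least 2.84; among the 18659 genes at 1 CPM or more the share was 1.55% and the median range 0.42. The order a, c, b was found in 16.5% of all tested genes. The unevenness is part of what the rows were chosen for, so these shares are a description.

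**Figure D2:**
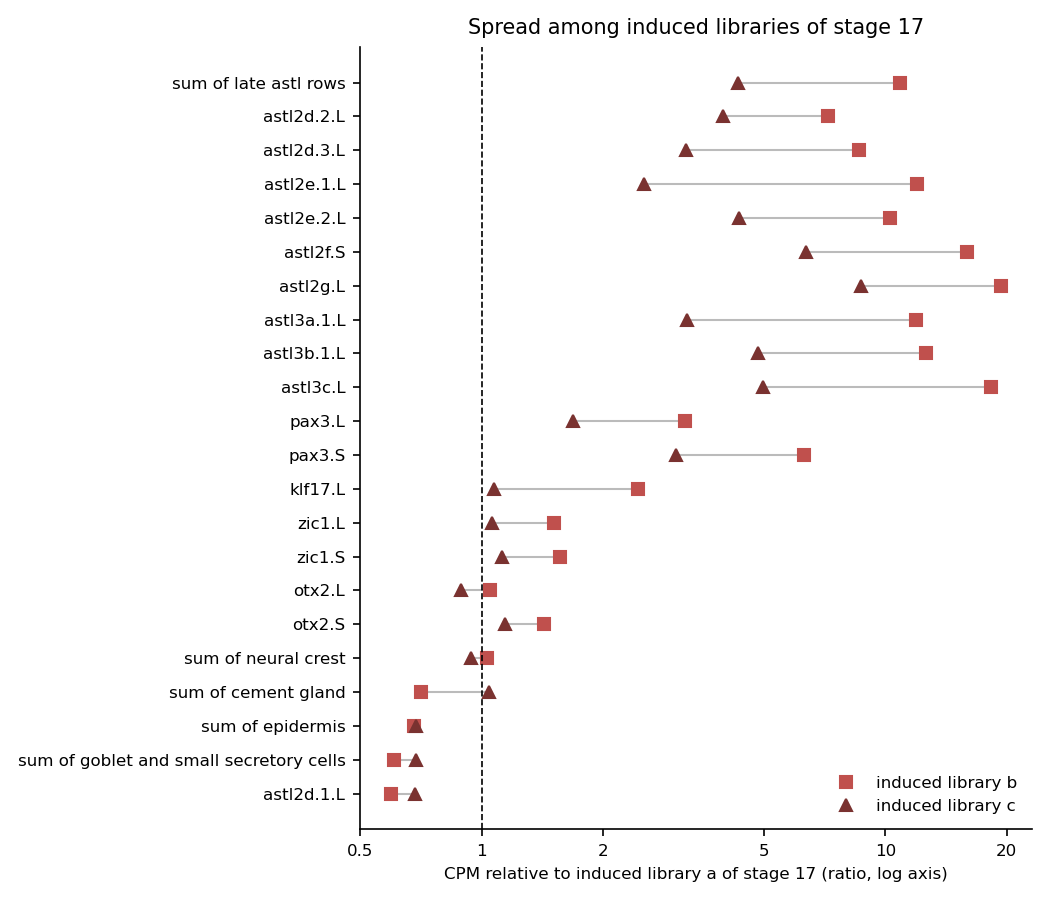
Levels in induced libraries b (squares) and c (triangles) of stage 17, divided by that in induced library a (dashed line at 1, log axis), for the late astl rows, regulators, marker list sums and astl2d.1.L. The late rows and both pax3 copies lie to the right of the line, the library c ratio of pax3.S (3.03) beyond that of astl2e.1.L (2.52), and the epidermis sum, the goblet sum and astl2d.1.L to its left.

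The make-up of the late counts differed less between these libraries than their total did. In induced libraries a, b and c of stage 17, astl2e.2.L took 30.9%, 29.4% and 31.1% of the late rows' counts. The share of astl2f.S was 18.5%, 27.1% and 27.3%, with exact 95% binomial intervals of 16.5 to 20.6% in a, 26.4 to 27.7% in b and 26.4 to 28.3% in c. Library a thus held relatively less astl2f.S than libraries b and c. Library a held relatively more astl2d.3.L, at 21.9%, 17.4% and 16.3% in libraries a, b and c. The share of astl2d.2.L was 14.7%, 9.71% and 13.5%, and that of astl3a.1.L was 11.2%, 12.3% and 8.38%. PCR duplicates were not marked by molecular identifiers, so these intervals cover counting error only.

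**Figure D3:**
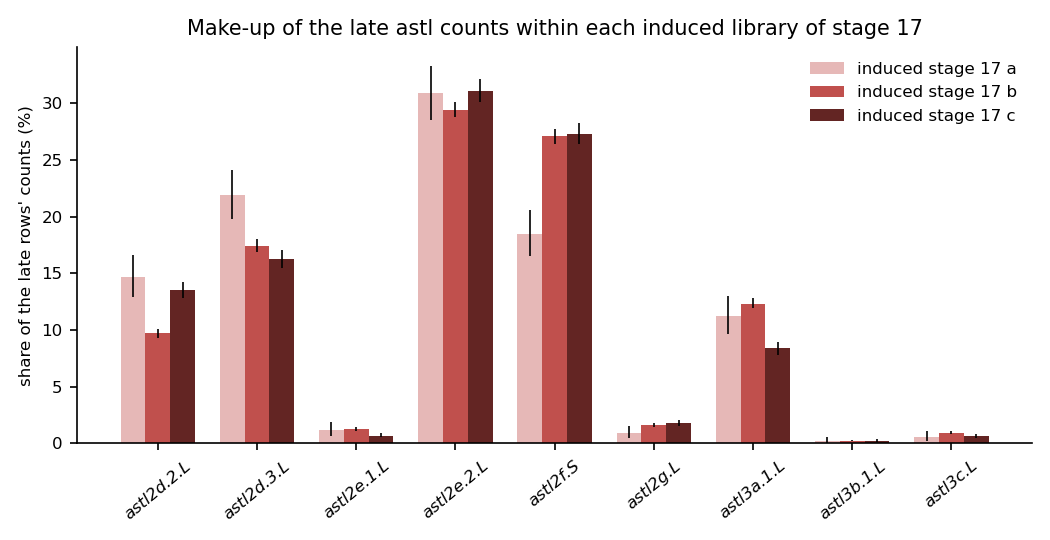
Bars give each late row's share, in percent, of the summed late counts in induced libraries a, b and c of stage 17; error bars are exact 95% binomial intervals. The summed CPM of the late rows differed 10.9 times between libraries b and a. The share of astl2e.2.L stayed between 29.4% and 31.1%, while that of astl2f.S ran from 18.5% to 27.3% and that of astl2g.L from 0.89% to 1.8%.

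The astl2d.1.L row had a different history from its numbered neighbours. At stage 9 it averaged 1.23 ± 0.69 CPM in induced caps and 0.982 ± 0.729 CPM in control caps. At stage 13 it stood at 189, 156 and 408 CPM in induced libraries a, b and c, against 1720, 1900 and 1250 CPM in control libraries. At stage 17 it stood at 3910, 2320 and 2680 CPM in induced libraries, against 4510, 5550 and 4130 CPM in control libraries. The arms did not overlap at either later stage, with every induced library below every control library, where 25.5% of all tested genes at stage 13 and 30.5% at stage 17 had that order.

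Among control caps alone, astl2d.1.L rose by 10.73 on the log2 scale between stages 9 and 13 (SE 0.66, edgeR adjusted p = 1.1e-09) and by a further 1.54 between stages 13 and 17 (SE 0.43, adjusted p = 0.011). As a description, induced minus control caps was -2.69 on the log2 scale (SE 0.45) at stage 13 and -0.67 (SE 0.43) at stage 17, and stage 17 minus stage 13 was 3.56 (SE 0.47) in induced caps. The gap between the arms was thus smaller at stage 17; that narrowing was not tested.

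The order of libraries for astl2d.1.L was the reverse of that of the late rows at stage 17, highest in a and lowest in b. The summed level of an epidermis list was 23200, 15700 and 15900 CPM in induced libraries a, b and c of stage 17, and that of a goblet and small secretory cell list was 39100, 23600 and 26800 CPM. At stage 13, where astl2d.1.L was highest in induced library c, the epidermis sum was 8570, 7270 and 9150 CPM and the goblet sum 8860, 8130 and 11200 CPM. Both sums were highest in the same library as astl2d.1.L at both stages. So was the ionocyte sum, at 135, 93.5 and 167 CPM in induced libraries a, b and c of stage 13 and 287, 163 and 190 CPM in those of stage 17. The part of these sums in the level of astl2d.1.L was not tested.

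The astl.L row, which shares its symbol with the mammalian gene for ovastacin, a cortical granule protease of the egg, was highest at stage 9. It stood at 15.2, 27.2 and 23 CPM in induced libraries a, b and c and 16.6, 19.5 and 22.2 CPM in control libraries. At stage 13 it averaged 1.44 ± 0.408 CPM in induced caps and 1.38 ± 0.298 CPM in control caps, and at stage 17 it averaged 0.278 ± 0.212 CPM in induced caps and 0.355 ± 0.212 CPM in control caps. In control caps it fell by 3.81 on the log2 scale between stages 9 and 13 (SE 0.43, edgeR adjusted p = 9.4e-07) and fell by 1.93 between stages 13 and 17 (SE 0.49, adjusted p = 0.0054). The ranges of the arms overlapped at each of the 3 stages.

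The 7 late rows that passed the filter did so through induced caps of stage 17 and held few or no counts in control caps. Tests between stages of control caps are therefore given for astl2d.1.L and astl.L alone. Over all tested genes, 36.2% rose and 35.1% fell between stages 9 and 13, and 20.1% rose and 19% fell between stages 13 and 17. Scaling by library totals moved the median gene by -0.79 on the log2 scale in stage 13 against 9, and with it 6188 genes rose and 12079 fell there, against 8870 and 8606 with TMM. Neither row changed its direction or its call with that scaling.

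**Figure D4:**
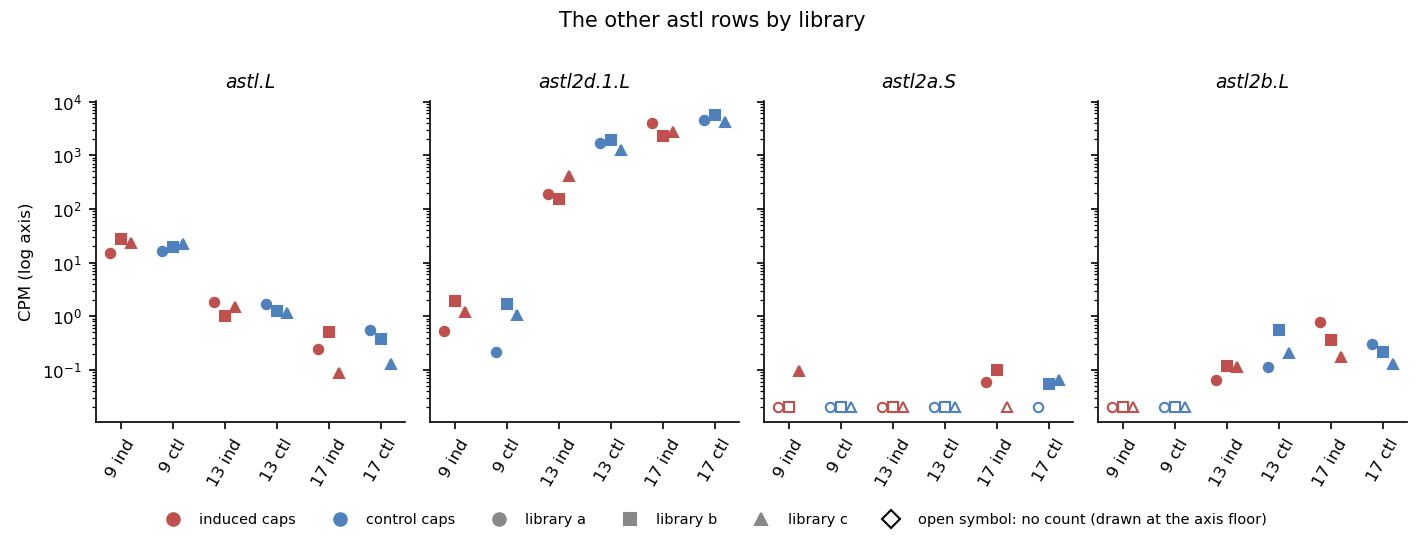
Each panel plots 1 of the 4 other astl rows, with CPM on a log axis against stage and arm; points are single libraries and open symbols at the axis floor hold no count. The astl.L values fall with stage in both arms, the astl2d.1.L values climb in both arms with induced caps below control caps at stages 13 and 17, and the other panels stay below 1 CPM.

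Most astl2 rows are neighbours. In the RefSeq annotation of assembly Xenopus laevis v10.1, used here only for names and gene order, 12 of the 13 rows had an entry and astl2e.1.L had none. On 1 chromosome the order was astl2b.L, astl2d.1.L, astl2d.2.L, tpcn2.L, astl2d.3.L, astl2e.2.L, nadsyn1.L and astl2g.L, so late rows lie next to the row that was high in control caps. The astl3b.1.L and astl3c.L rows also adjoin each other. Numbered rows may be near-identical copies, and reads that aligned to more than 1 place, 10.3 to 12.2% per library, were in no row; how many of them came from astl genes was not examined.

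The genes lying between the astl rows were read for comparison. Expression of nadsyn1.L, which encodes NAD synthetase, was 1.81, 19.4 and 7.76 CPM in induced libraries a, b and c of stage 17, against 2.51, 2.19 and 0.455 CPM in control libraries. That is the order of libraries of the late rows. Induced caps were higher than control caps by 2.48 on the log2 scale (SE 0.72, edgeR adjusted p = 0.01), and without induced library b the difference was 1.53 and no longer passed (adjusted p = 0.089). Within induced caps it rose by 2.36 between stages 13 and 17 (SE 0.71, adjusted p = 0.015), which was lost without library b of stage 17 (1.35, adjusted p = 0.14) or library c of stage 13 (2.08, adjusted p = 0.059). Unlike the late rows, nadsyn1.L was also expressed at stage 9, at 9.7 ± 4.4 CPM in induced caps and 8.47 ± 2.17 CPM in control caps.

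Expression of tpcn2.L, which encodes a cation channel of endosomes and lysosomes, was 6.04, 19.4 and 11.3 CPM in induced libraries a, b and c of stage 17, or 12.2 ± 6.72 CPM, against 7.37 ± 1.12 CPM in control caps. It too was lowest in library a and highest in b. It rose by 2.07 on the log2 scale between stages 13 and 17 in induced caps (SE 0.37, edgeR adjusted p = 0.00037). In control caps of stage 13 it averaged 4.33 ± 0.149 CPM. Unlike the late rows, tpcn2.L was highest at stage 9, at 42.7 ± 15.2 CPM in induced caps and 46.3 ± 12.7 CPM in control caps. At stage 17 induced minus control caps was 0.73 (SE 0.35, adjusted p = 0.098); without induced library a it was 1.06 and passed (adjusted p = 0.013), and with library totals it was 0.97 and passed (adjusted p = 0.041). Whether reads of one gene were counted in a neighbour was not examined.

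Regulators of the neural plate border and the hatching gland were already higher in induced caps at stage 13. Pax3 and Zic1 are transcription factors of the plate border that in Xenopus are known to act in forming both neural crest and hatching gland, and klf17 encodes a zinc-finger factor of the frog and zebrafish hatching gland. Of 19 rows in the regulator list, all were tested. Its msx1 and snai2 rows are also in the neural crest list. At stage 13, 19 were higher and none lower in induced caps than in control caps, where 18.9% of all tested genes were higher and 21.4% lower. In that comparison 18 of 20 neural crest rows were higher and 2 lower, and 12 of 19 neural plate rows were higher and none lower. At stage 17, 17 of the regulator rows were higher and none lower, where 22.2% of all tested genes were higher and 22.8% lower. Between stages 13 and 17 in induced caps, 14 fell, 1 rose and 4 did not pass, where 21% of all tested genes rose and 18.7% fell, or 5134 and 4589 genes; with library totals 6323 rose and 3290 fell, and the median gene moved by 0.2 on the log2 scale.

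The level of pax3.L was 589 ± 49.1 CPM in induced caps of stage 13. At stage 17 it was 125, 400 and 210 CPM in induced libraries a, b and c, against 2 counts in all control libraries, a ratio of 6240 (1730 to 51500; edgeR adjusted p = 1.7e-08). It fell by 1.26 on the log2 scale between stages 13 and 17 in induced caps (SE 0.35, adjusted p = 0.011). For pax3.S the libraries a, b and c stood at 55, 347 and 167 CPM, and its change between those stages, -1.07, did not pass (adjusted p = 0.081). With the letter as a replicate block the same change was -1.31 and passed (adjusted p = 0.032), as it did without induced library b of stage 17 (-1.84, adjusted p = 0.0063).

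Other regulators had a smaller spread between libraries. Expression of klf17.L averaged 85.5 ± 46.1 CPM in induced caps and 18.1 ± 3.64 CPM in control caps of stage 17 (log2 2.24, SE 0.35, adjusted p = 7.8e-05), at 56.7, 139 and 61 CPM in induced libraries a, b and c. It fell by 1.33 between stages 13 and 17 in induced caps (adjusted p = 0.0049). Expression of zic1.L was 114, 172 and 120 CPM in those libraries and that of zic1.S was 56.9, 89 and 64 CPM. The zic1.S level fell by 2.47 between those stages (adjusted p = 7.1e-05), while the change of zic1.L, -0.31, did not pass (adjusted p = 0.48).

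The otx2 gene, which encodes a homeodomain factor of anterior ectoderm, differed less between the arms. At stage 17 otx2.S was higher in induced caps by 1.17 on the log2 scale (adjusted p = 0.027), a call lost without control library a (1.1, adjusted p = 0.082), control library c (1.15, adjusted p = 0.073), induced library b (1.07, adjusted p = 0.076) or induced library c (1.21, adjusted p = 0.052). For otx2.L the difference of 1.23 missed the threshold (adjusted p = 0.051). It passed with the replicate block (1.27, adjusted p = 0.023), with library totals (1.46, adjusted p = 0.025), with DESeq2 (1.19, adjusted p = 0.041), without a filter on low counts (1.29, adjusted p = 0.048) and with only the compared groups in the fit (1.25, adjusted p = 8e-04). The snai2.S row, of a crest transcription factor, was the second that did not pass (0.43, adjusted p = 0.57).

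**Figure D5:**
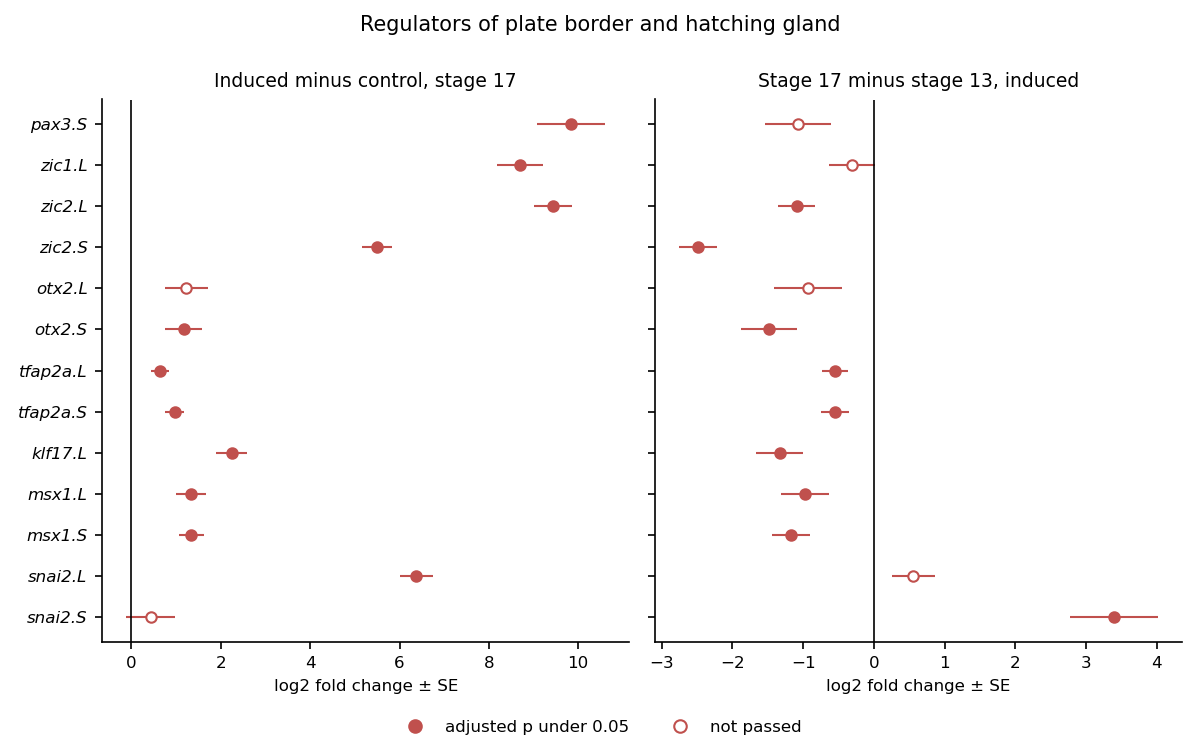
Points give the log2 fold change with its SE for the 13 regulator rows with more than 3 counts in control caps of stage 17, induced minus control caps at stage 17 on the left and stage 17 minus stage 13 of induced caps on the right; filled points passed the test. Most points lie right of 0 on the left and left of 0 on the right.

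Many regulators had the late rows' order of libraries. At stage 17, 13 of the 19 rows, or 68.4%, were lowest in induced library a, intermediate in c and highest in b, against 16.5% of all tested genes, and 15 were highest in b. The injected chrd.1.S mRNA had that order too, at 155, 227 and 174 CPM in induced libraries a, b and c of stage 17. The injected wnt8a.L did not, at 8.75, 11.2 and 18.5 CPM. At stage 13, where astl2f.S was lowest in a and highest in c, wnt8a.L stood at 33.4, 69.9 and 104 CPM in induced libraries a, b and c. The sums of the neural crest list (2080, 2430 and 2500 CPM), the neural plate list (449, 564 and 622 CPM) and the multiciliated cell list (106, 157 and 275 CPM) had that order too. The sums of the other lists did not have it, the regulator sum standing at 5360, 4930 and 5140 CPM, nor did chrd.1.S, at 1550, 1260 and 994 CPM. The neural crest sum was alike in the induced libraries of stage 17, at 5100, 5240 and 4800 CPM, and the cement gland sum was 447, 316 and 466 CPM. The order a, c, b was not particular to the regulators at stage 17. The neural plate sum had it, at 323, 469 and 467 CPM, with 6 of 19 rows (31.6%) in that order. So did the sums of the multiciliated cell list (221, 250 and 237 CPM) and of astacins outside the astl rows (43.1, 50 and 49.2 CPM). In that order were 1 of 18 multiciliated rows (5.56%) and 0 of 5 astacin rows, against 16.5% of all tested genes. These 2 sums thus had an order that few or none of their rows had. Apart from the regulator sum, the other list sums did not have the order a, c, b. The part of these values in the late rows' unevenness was not tested.

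Astacins outside the astl rows moved in both directions at stage 17, with 2 of 5 tested rows higher and 2 lower in induced caps, where 22.2% of all tested genes were higher and 22.8% lower. BMP1 and the tolloid-like proteases cleave Chordin and procollagen. A list of these and the meprins had 7 rows, of which 5 passed the filter. At stage 17 bmp1.L averaged 29.5 ± 5.48 CPM in induced caps and 6.09 ± 0.75 CPM in control caps (log2 2.28, edgeR adjusted p = 2.8e-07), and bmp1.S averaged 11 ± 1.15 CPM in induced caps and 2.66 ± 0.308 CPM in control caps (log2 2.05, adjusted p = 1.1e-06). In contrast, tll1.L averaged 1.57 ± 1.41 CPM in induced caps and 68.9 ± 16.7 CPM in control caps (log2 -5.42, adjusted p = 3.2e-05), and tll1.S averaged 2.9 ± 1.78 CPM in induced caps and 66.8 ± 12.5 CPM in control caps (log2 -4.51, adjusted p = 4.1e-05). The change of tll2.L, -0.82, did not pass (adjusted p = 0.097), and without induced library c it was -1.52 and passed (adjusted p = 0.0037). None of the 5 rows had the library order a, c, b.

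Markers of other cell types and a further hatching gland list were read in the same libraries. Over all tested genes at stage 17, 22.2% were higher and 22.8% lower. Of 8 tested cement gland rows, 4 were higher and 2 lower in induced caps of stage 17, with a log2 difference of 2.96 for otx1.L (adjusted p = 0.00086) and of -3.56 for agr2.S (adjusted p = 0.00057). Of 10 tested rows in a list of other egg envelope and hatching gland secretory genes, none was higher and 3 were lower (median log2 -0.26). The hatching gland regulators differed from this list, with 17 of 19 rows higher. Without control library c or without induced library c, 1 row of the secretory gene list was lower. The secretory gene list holds the secretory regulator xbp1. In induced libraries a, b and c of stage 17 its L copy stood at 102, 209 and 118 CPM. Control libraries a, b and c of that stage held 173, 141 and 164 CPM of it. The S copy stood at 67.2, 178 and 93.9 CPM in those induced libraries. It stood at 74.1, 65.2 and 79.1 CPM in those control libraries. At stage 17, 2 of 18 multiciliated cell rows were higher and 15 lower, none of 16 ionocyte rows was higher and all were lower, and of 10 goblet and small secretory rows none was higher and 4 were lower (2 without induced library b). Of 19 neural plate rows 8 were higher and 3 lower, of 15 placode rows 3 and 2 (6 and 2 with library totals), of 11 muscle and mesoderm rows 6 and 0, and of 9 endoderm rows 2 and 3. The placode and endoderm counts lie near the shares over all tested genes. The muscle and mesoderm sum was 56.5, 59 and 127 CPM in induced libraries a, b and c of stage 17. In control libraries of that stage it was 7.54 to 8.95 CPM. Of the 23 rows of that list, 12, 13 and 0 held no count in induced libraries a, b and c. In control libraries a, b and c, 11, 11 and 10 rows held none.

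Likeness to the 3 rows picked out beforehand was measured as Pearson's r over the 18 libraries, between a gene's log2 CPM and the log2 of their summed CPM. The libraries share their groups and their depth, so r is a description and carries no p. Of 24490 genes compared, 115 had an r of 0.9 or more. The closest were efhd2.S (0.963), of a calcium-binding protein, mafb.S (0.963), of a bZIP transcription factor, vdr.S (0.961), the vitamin D receptor, and homer3.L (0.957), of a scaffold protein. They were followed by c1orf216.S (0.954), pcdh8l.S (0.953), of a protocadherin, LOC108697860 (0.95), provisionally fam131c, and twist1.L (0.95), of a crest transcription factor. With a smaller prior count of 0.5 in place of 2, 6 of the 8 stayed among the closest 8.

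Only some of these genes were uneven in the same way. In induced libraries a, b and c of stage 17, vdr.S stood at 3.32, 15.2 and 7.36 CPM, against a mean of 0.0751 CPM in control caps. By contrast, twist1.L stood at 188, 206 and 166 CPM in the same libraries. Among the other astl rows, r was 0.916 for astl2e.2.L and between 0.851 and 0.876 for the 5 other late rows. It was 0.605 for astl2d.1.L and -0.682 for astl.L.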

How the data were processed

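Poly(A) RNA-seq libraries were made with a directional kit, per the labels' protocols. The authors deposited raw counts per gene, and fastp 0.23.2, STAR 2.6.0 and HTSeq 1.99.2 are named in the submitters' processing notes; the build, the gene models and the strandedness used for counting are not stated there. The 5 HTSeq summary lines were left out (no feature 10.2 to 12.8% and ambiguous 0.198 to 0.512% of the table per library). Libraries of a group differed beyond sampling noise (chi-square per degree of freedom 21.4 to 48.9). Column letters a, b and c occur in no label. Residuals of same-letter libraries correlated at 0.275 to 0.535 across compared groups and each letter matched itself best. The main fits held no term for the letter, so their p-values are unpaired. The letter entered only the replicate block, an alternative fit.

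Computed here were CPM with TMM factors (0.785 to 1.4) and edgeR 4.0.16 quasi-likelihood fits in R 4.3.3 over all 18 frog libraries and 6 groups, two-sided, with filterByExpr and Benjamini-Hochberg adjustment over 24499 genes. On simulated counts for stage 17, 32% of genes changed by log2 1 and 79% of those changed by log2 2 were recovered. There were 5 false calls. The simulation changed only genes above a bound on their expected counts in control caps of stage 17. It held no correlation between same-letter libraries. These shares therefore do not cover rows that were close to empty in control caps. DESeq2 1.42.0, other filters, library totals, a replicate block and leaving out each library were alternatives. Ratios are pooled counts over pooled effective library sizes, with exact 95% intervals and a floor of 3 counts per group. Named were astl rows at 1 CPM or more in a group, the 8 genes most like the given members, and, among up to 3 of the most changed genes of each list and the regulators pax3, zic1 and otx2, those the results turn on, 1 gene not being reported here; bmp1.S, tll2.L, klf17.L, snai2.S, xbp1, tpcn2.L and nadsyn1.L were added after their values were seen. The members and the lists were chosen with earlier results of these data known.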

Additional observations from a re-analysis of the deposited data

How the results depend on the processing

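The counts of called genes stayed within 1.5 times of those reported in all 5 comparisons under every alternative run; with the replicate block they were 18618 for stage 13 against 9 and 11424 for stage 17 against 13 of control caps, 11565 for stage 17 against 13 of induced caps, and 11255 and 12711 for induced against control caps of stages 13 and 17, against 17476, 9572, 9723, 9877 and 11013 without it. The block changed the calls given above for pax3.S and otx2.L. It also turned the fitted change of astl2d.2.L in control caps between stages 13 and 17 from 0.23 on the log2 scale to -0.01. Without 1 library that value moved between -1.9 and 0.75. The row held 6 counts in control caps of stage 13 and 8 in those of stage 17, too few to read a change, so only the sign change is given. For astl rows in comparisons with induced caps, crossings of 0 by small log2 values were not counted. Among the genes outside astl that were checked, leaving out 1 library moved 4 uncalled log2 values across 0. These ran between -0.02 and 0.26 for bmp1.L and between -0.35 and 0.68 for tll2.L (stage 17 minus 13, induced caps). They ran between -0.6 and 0.1 for nadsyn1.L (induced minus control, stage 13). For xbp1.L (induced minus control, stage 17) they ran between -0.49 and 0.04, and library totals turned the value to 0.08. The cause was not tested. Library totals moved the share of calls that were higher to 33.9% (50.8% with TMM) for stage 13 against 9 of control caps, to 65.8% (52.8%) for stage 17 against 13 of induced caps and to 61.5% (49.3%) for induced against control caps of stage 17. They moved 3 of 41 group means of CPM by more than the SD, and the ratios of the highest to the lowest induced library of stage 17 stayed within 1.5 times for all 11 named astl rows. A search of promoter sequences was not run, since none were used here. The 3 libraries per group limit the precision, and rows with 3 counts or fewer in control caps give only a bound or a wide interval.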
